A study of Mus musculus with 8 samples.

Results

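Ligands and receptors of 4 receptor tyrosine kinase systems were followed at the mRNA level in mouse embryonic stem cells (ESCs) grown with and without a layer of feeder cells. The 10 genes were chosen by symbol, out of 20278 genes with reads in at least 1 library, and each was found in the gene tables. They are Hgf with its receptor Met, Kitl with Kit, Csf1 with Csf1r, and the ligands Pdgfa and Pdgfc with the receptors Pdgfra and Pdgfrb. The question was which partner of each pair appeared with feeders. N33, 1 ESC line whose strain is labelled C57BL/6 (C57BL/6J in the methods), was grown in 4 conditions with 2 samples each. The first (−F) was serum on gelatin without feeders, and the second (+F) was serum on feeders, with 20% FBS in both. LIF, a cytokine that maintains ESCs, was used in all 4 conditions, at 1000 U/ml where its level is given (−F, +F and NB2i). The third (F2i) combined serum, feeders and 2i, which is a Gsk3β inhibitor together with a Mek inhibitor, with the levels of serum, LIF and inhibitors not given in the sources used here. The last (NB2i) was the defined medium N2B27 on poly-L-ornithine and laminin, without serum or feeders, with CHIR99021 at 3 µM and PD0325901 at 1 µM. Feeders were mouse embryonic fibroblasts stopped from dividing with mitomycin C. The paper's qPCR methods describe 2 rounds of taking ESCs off feeders by adherence, and its RNA sequencing methods say only that ESCs were harvested. Feeder RNA could therefore remain in the +F and F2i libraries. F2i and NB2i differed in feeders, serum, medium and substrate together. What is called the feeder difference in 2i below is F2i minus NB2i and includes all of these. Feeders were the stated difference of +F from −F, with gelatin in their place. The paper calls the samples of a condition biological replicates, without saying whether they were separate cultures, and p-values measured the spread between these samples.

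A receptor tyrosine kinase spans the cell membrane, and binding of its ligand brings receptors together so that they phosphorylate each other and start Ras-Mek-Erk and PI3 kinase signalling inside the cell. A ligand made by one cell type and a receptor carried by its neighbour form a paracrine pair, whereas a cell that makes both can stimulate itself. Fibroblasts are a classic source of hepatocyte growth factor, Kit ligand and macrophage colony-stimulating factor, and they respond to platelet-derived growth factors (PDGFs). One of the inhibitors in 2i acts on Mek, a kinase downstream of these receptors.

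Expected counts, the estimates of reads per gene that the authors deposited, summed to between 20129641 and 20664488 per library. Levels of genes were compared as FPKM, which corrects for transcript length and depth. The 7 ESC markers looked at were at 1 FPKM or more in every library, with Pou5f1 means from 588 FPKM in −F to 750 FPKM in NB2i. The 13 fibroblast markers together summed to between 10.6 and 11.2 FPKM in −F, 207 and 218 FPKM in +F, 568 and 582 FPKM in F2i, and 1.98 and 2.47 FPKM in NB2i. All 13 were called higher in +F than in −F and in F2i than in NB2i by the test described next, where 5.59% and 13.3% of all genes tested were. In such bulk libraries fewer cells of a type and less RNA per cell cannot be told apart.

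Differences were tested on counts with edgeR's quasi-likelihood test over all 15287 genes with enough counts, with Benjamini-Hochberg adjustment, and all 10 genes were among those tested. A gene is said to pass at an adjusted p under 0.05, and to be called where it also differs by at least 2-fold. SE and 95% intervals are of the log2 fold change. Each adjusted p is from this edgeR fit unless another tool is named.

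In serum, feeders went with more Csf1, Kitl, Pdgfra, Pdgfrb and Hgf mRNA and with less Csf1r. These 6 genes were called between +F and −F, 5 higher and 1 lower, where 7.24% of all genes tested were called, 5.59% higher and 1.65% lower. The other 4 genes passed with folds under 2, Kit, Pdgfa and Pdgfc higher and Met lower. In all 8 genes passed higher and 2 lower, where 40.2% of all genes tested passed, 21.7% higher and 18.5% lower. The median log2 fold change of the 10 genes was 0.85, beside 2.66e-05 over all genes tested. Under the rule that a gene is present where both samples hold at least 1 FPKM, 2 genes were present in at least 1 feeder condition and in neither condition without feeders, Pdgfrb in +F and F2i and Pdgfra in +F alone. At a limit of 0.5 FPKM there were 3, with Pdgfra now present in F2i too and Kitl added in +F alone, and at 2 FPKM there was 1, Pdgfrb in F2i alone. Pdgfra and Pdgfrb had counts in every library without feeders, so the rule marks a level and not absence. How many of all genes meet the rule was not counted, so these numbers do not say whether the 10 genes are unusual in this.

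**Figure D1:**
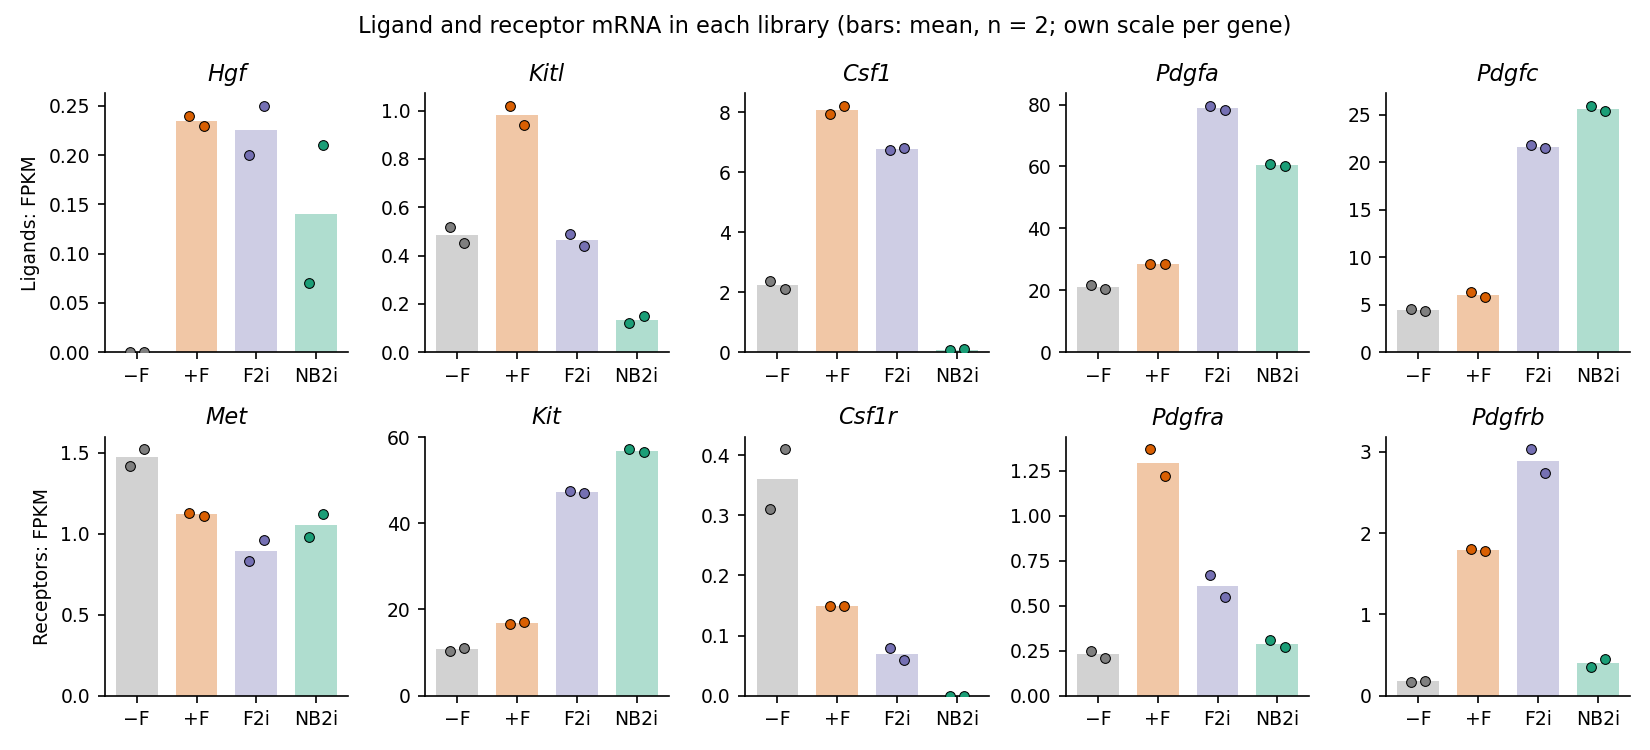
FPKM of the 5 ligands (upper row) and 5 receptors (lower row) in the 4 conditions, each panel on its own scale from 0. Points are the 2 libraries of a condition and bars are their mean. Csf1, Pdgfra and Pdgfrb are higher in both feeder conditions than in both others, while Kit and Pdgfc are highest in NB2i.

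Hgf, hepatocyte growth factor, is a secreted ligand lying at chr5:16553495-16620152 (mm10, plus strand). It was at 0 and 0 FPKM in −F, 0.24 and 0.23 FPKM in +F, 0.20 and 0.25 FPKM in F2i, and 0.07 and 0.21 FPKM in NB2i. The counts behind these values were 0 and 0, 14 and 12, 10 and 13, and 4 and 11. The −F libraries were therefore the ones without a read, and NB2i, which also had no feeders, did have reads. Against a floor of 3 counts per library, Hgf was at least 4.34-fold higher in +F than in −F (adjusted p = 0.00015), and at least 2.49-fold higher in NB2i than in −F (adjusted p = 0.00068). The latter rests on unequal NB2i libraries. Its fitted log2 fold change, whose size depends on the prior count, was 5.07 without NB2i replicate 2 and 6.50 without NB2i replicate 1. Testing required 10 counts in 2 samples, which Hgf met through the feeder conditions, where it was highest. Of the NB2i and −F libraries only NB2i replicate 2 reached 10 counts. With only these conditions in the fit Hgf had too few counts to be tested, so the p of NB2i against −F is no support by itself. Between F2i and NB2i the log2 fold change of Hgf was 0.63 (SE 0.52, 95% interval −0.46 to 1.71, adjusted p = 0.30), and between F2i and +F it was −0.13 (95% interval −1.09 to 0.84, adjusted p = 0.84). The difference that went with feeders was thus found in serum and not detectable at this depth in 2i, and the 2 feeder differences themselves differed (adjusted p = 0.0024). No Hgf library reached 1 FPKM.

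Met, the receptor for Hgf, lies at chr6:17463800-17573980 (plus strand). It was at 1.42 and 1.52 FPKM in −F, 1.13 and 1.11 FPKM in +F, 0.83 and 0.96 FPKM in F2i, and 0.98 and 1.12 FPKM in NB2i. Its means spanned 1.64-fold, the narrowest range of the 8 genes with reads in every library. Met was lower in +F than in −F by a log2 fold change of −0.37 (SE 0.11, adjusted p = 0.012) and lower in NB2i than in −F by −0.42 (SE 0.11, adjusted p = 0.0027). The first of these did not pass in DESeq2 (adjusted p = 0.11), without −F replicate 2 (0.071), without +F replicate 2 (0.063) or in either limma fit, and the second did not pass without NB2i replicate 1 (adjusted p = 0.052). Between F2i and NB2i it was −0.24 (95% interval −0.50 to 0.02, adjusted p = 0.10), which did not pass. The order of the means was −F, +F, NB2i and F2i, and the libraries of +F and NB2i overlapped. Met was above Hgf in all 8 libraries.

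Kitl, Kit ligand, also called stem cell factor, lies at chr10:100015630-100100416 (plus strand). It was at 0.52 and 0.45 FPKM in −F, 1.02 and 0.94 FPKM in +F, 0.49 and 0.44 FPKM in F2i, and 0.12 and 0.15 FPKM in NB2i. The −F and F2i libraries overlapped, +F lay above them and NB2i below. Kitl was called higher in +F than in −F (log2 fold change 1.02, SE 0.17, adjusted p = 5.7e-05). It was called higher in F2i than in NB2i (1.74, SE 0.26, adjusted p = 4.5e-06), and lower in F2i than in +F (−1.04, SE 0.17, adjusted p = 2.7e-05). It was also called lower in NB2i than in −F, neither of which had feeders (−1.76, SE 0.25, adjusted p = 2.2e-06). The 2 feeder differences of Kitl did not differ past the threshold (−0.72, 95% interval −1.38 to −0.06, adjusted p = 0.068), although the interval, which is not adjusted, left out 0. The fold in serum was close to 2, and without −F replicate 2 the log2 fold change was 0.92 and without +F replicate 1 it was 0.96.

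Kit, the receptor for Kitl, was the most abundant of the 5 receptors and lies at chr5:75574916-75656722 (plus strand). It was at 10.4 and 11.1 FPKM in −F, 16.7 and 17.1 FPKM in +F, 47.5 and 47.0 FPKM in F2i, and 57.2 and 56.5 FPKM in NB2i. No 2 conditions overlapped, and the order was NB2i, F2i, +F and −F. Kit rose with 2i on feeders (F2i against +F, log2 fold change 1.52, SE 0.04, adjusted p = 3.2e-17) and between the conditions without feeders (NB2i against −F, 2.47, SE 0.05, adjusted p = 4.8e-21). Feeders went with more Kit in serum (0.68, SE 0.05, adjusted p = 4.7e-10) and with less in 2i (−0.27, SE 0.04, adjusted p = 6.3e-06), and these differences differed from each other by 0.95 on the log2 scale (SE 0.06, adjusted p = 9.0e-11). Kit also marks germ cells. Of 5 germ cell markers 1 passed higher and 3 lower in F2i against +F, where 27.3% of all genes passed higher and 27.4% lower. In NB2i against −F 1 passed higher and 3 lower too, where 36.9% of all genes passed higher and 35.4% lower. The markers that rose were not the same. Dazl was at 3.17, 4.555, 14.7 and 2.775 FPKM and Prdm1 at 3.345, 3.645, 3.595 and 6.895 FPKM in −F, +F, F2i and NB2i. Dppa3, the most abundant, was at 68.48, 57.82, 34.03 and 28.26 FPKM in the same order. In this pair the receptor stood above the ligand in every library, and Kitl was highest in +F whereas Kit was highest in NB2i.

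Csf1, macrophage colony-stimulating factor, is made by fibroblasts and supports macrophages, and it lies at chr3:107741048-107760469 (minus strand). It was at 2.37 and 2.11 FPKM in −F, 7.93 and 8.21 FPKM in +F, 6.74 and 6.82 FPKM in F2i, and 0.06 and 0.09 FPKM in NB2i. The NB2i values rested on 4 and 6 counts. Csf1 had the widest range of the genes with reads in all 4 conditions, 108-fold between the means of +F and NB2i. It was 3.83-fold higher in +F than in −F (95% interval 3.41 to 4.31, adjusted p = 2.8e-14) and 114-fold higher in F2i than in NB2i (95% interval 89.5 to 145, adjusted p = 6.9e-19). The 2 feeder differences differed by −4.90 on the log2 scale (SE 0.25, adjusted p = 7.4e-13). NB2i was also 33.4-fold below −F, the other condition without feeders (log2 fold change −5.06, SE 0.22, adjusted p = 8.1e-15). With 2i on feeders it was slightly lower (−0.17, SE 0.07, adjusted p = 0.037), and this difference no longer passed in DESeq2 (adjusted p = 0.30). It also no longer passed when any 1 of the 6 libraries of +F, F2i and NB2i was left out, with adjusted p from 0.056 to 0.20.

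Csf1r, the receptor for Csf1 and a marker of macrophages, was near the limit of detection. It was at 0.31 and 0.41 FPKM in −F, 0.15 and 0.15 FPKM in +F, 0.08 and 0.06 FPKM in F2i, and 0 and 0 FPKM in NB2i. These values rested on 25 and 33, 12 and 12, 6 and 5, and 0 and 0 counts. The 4 conditions did not overlap, and Csf1r, like Met, was highest in serum without feeders. Csf1r was called lower in +F than in −F (log2 fold change −1.24, SE 0.35, adjusted p = 0.0084), but not in DESeq2 (adjusted p = 0.15) and not without −F replicate 2 (−1.03, adjusted p = 0.082). Against the floor of 3 counts it was at least 1.87-fold higher in F2i than in NB2i (adjusted p = 0.0017) and at least 9.74-fold lower in NB2i than in −F (adjusted p = 1.4e-07). No F2i or NB2i library reached the 10 counts in 2 samples that testing required, which Csf1r met only through −F and +F. The p for F2i against NB2i is therefore no support for a difference there. In this fit the 2 feeder differences had opposite signs and differed (adjusted p = 0.00038), which rests on the same few counts. Macrophage markers, 10 in all, summed to between 5.59 and 6.61 FPKM in −F, 19.9 and 20.5 in +F, 12.96 and 14.29 in F2i, and 20.2 and 22.1 in NB2i. Adgre1, C1qb and Fcgr1 had no counts in −F, where Csf1r was highest. Lyz2 rose from a mean of 0.025 FPKM in −F to 8.54 FPKM in +F, and Cd68, also present in other cells, made up most of the sum in NB2i. The RefSeq gene of Csf1r ends 137 bases from its convergent neighbour Hmgxb3, which was at 13.4 to 17.7 FPKM, and a longer GENCODE transcript of Csf1r overlaps it. The library was not stated to keep the strand, so reads of the 2 genes in that stretch could not be told apart, and the part of this in the Csf1r values was not tested. The same holds for antisense genes annotated over exons of Pdgfa (up to 354 bases), Pdgfc (147 bases) and Pdgfra (341 bases), which have no values of their own here.

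The PDGF ligands and receptors fell into separate groups, with the ligands high in every condition and the receptors low. Pdgfa, the A chain of PDGF, binds the alpha receptor and lies at chr5:138976014-138997370 (minus strand). It was at 21.6 and 20.4 FPKM in −F, 28.6 and 28.4 FPKM in +F, 79.6 and 78.2 FPKM in F2i, and 60.8 and 60.1 FPKM in NB2i. Pdgfa was called higher with 2i on feeders (log2 fold change 1.51, SE 0.06, adjusted p = 2.4e-15) and in NB2i against −F (1.59, SE 0.06, adjusted p = 7.1e-16). With feeders it passed below 2-fold, by 0.46 in serum (SE 0.07, adjusted p = 1.1e-05) and 0.38 in 2i (SE 0.05, adjusted p = 1.8e-06). The difference between these was 0.09 with a 95% interval of −0.09 to 0.26 (adjusted p = 0.43).

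Pdgfc, a PDGF chain that must be cleaved by a protease before it binds its receptor, lies at chr3:81036416-81214040 (plus strand). It was at 4.58 and 4.33 FPKM in −F, 6.32 and 5.77 FPKM in +F, 21.8 and 21.5 FPKM in F2i, and 25.9 and 25.4 FPKM in NB2i. It was called higher with 2i on feeders (1.88, SE 0.06, adjusted p = 1.9e-16) and in NB2i against −F (2.59, SE 0.06, adjusted p = 3.1e-19), in the same order of conditions as Kit. Feeders went with slightly more Pdgfc in serum (0.46, SE 0.08, adjusted p = 5.1e-05) and slightly less in 2i (−0.25, SE 0.05, adjusted p = 0.00022), and these differed (0.71, SE 0.09, adjusted p = 1.5e-06). Pdgfc made up between 16.9% and 18.1% of the summed FPKM of both PDGF ligands in serum without 2i, 21.5% and 21.6% in F2i, and 29.7% and 29.9% in NB2i.

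Pdgfra, the alpha receptor, marks many mesenchymal cells and also primitive endoderm, the extraembryonic layer that ESC cultures can form. It lies at chr5:75152292-75198215 (plus strand), 376700 bases from Kit with no protein-coding gene between them. It was at 0.25 and 0.21 FPKM in −F, 1.37 and 1.22 FPKM in +F, 0.67 and 0.55 FPKM in F2i, and 0.31 and 0.27 FPKM in NB2i. No 2 conditions overlapped. Pdgfra was 5.76-fold higher in +F than in −F (95% interval 4.46 to 7.44, adjusted p = 2.0e-10) and 2.10-fold higher in F2i than in NB2i (95% interval 1.59 to 2.77, adjusted p = 5.7e-05), and the log2 differences differed by 1.46 (SE 0.28, adjusted p = 0.00018). It fell with 2i on feeders (log2 fold change −1.05, SE 0.15, adjusted p = 2.9e-06). Between the conditions without feeders it was 0.40 (95% interval −0.09 to 0.90, adjusted p = 0.13). Primitive endoderm markers, 7 in all, were each higher in +F than in −F past the test, 5 of them called. Of all genes tested 21.7% passed higher there and 5.59% were called higher. In F2i against +F 5 markers passed lower and 0 higher, where 27.4% and 27.3% of all genes did. In F2i against NB2i 3 passed higher and 2 lower, where 30.8% and 33.3% of all genes did. Their summed level was between 11.98 and 13.47 FPKM in −F, 22.9 and 24.0 in +F, 11.5 and 11.6 in F2i, and 23.4 and 23.9 in NB2i, where Lama1 alone was at 20.8. Their part in the Pdgfra difference was not tested.

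Pdgfrb, the beta receptor, is carried by fibroblasts and by the mural cells of vessels. It was at 0.17 and 0.18 FPKM in −F, 1.81 and 1.78 FPKM in +F, 3.03 and 2.74 FPKM in F2i, and 0.35 and 0.45 FPKM in NB2i. Both feeder conditions lay above both others with no overlap. Pdgfrb was 10.4-fold higher in +F than in −F (95% interval 8.08 to 13.4, adjusted p = 1.2e-12) and 7.18-fold higher in F2i than in NB2i (95% interval 5.91 to 8.72, adjusted p = 6.6e-14). The feeder differences did not differ past the threshold (log2 difference 0.54, 95% interval −0.01 to 1.09, adjusted p = 0.11). With 2i on feeders Pdgfrb rose by 0.72 (SE 0.10, adjusted p = 3.4e-06), whereas Pdgfra fell, and the summed level of the fibroblast markers was 2.70-fold higher in F2i than in +F. Pdgfrb was also higher in NB2i than in −F (1.26, SE 0.24, adjusted p = 7.9e-05), where the fibroblast marker sum was lower. Of 7 mural markers 6 were tested. In +F against −F 3 passed higher and 1 lower, where 21.7% and 18.5% of all genes tested did. In F2i against +F 4 passed higher and 1 lower, where 27.3% and 27.4% of all genes tested did. In F2i against NB2i 5 were called higher and 0 lower, where 13.3% and 6.01% of all genes tested were. Cspg4 was at 0.060, 0.945, 2.42 and 0.025 FPKM and Des at 7.86, 12.03, 13.98 and 2.54 FPKM in −F, +F, F2i and NB2i, whereas Notch3 was highest in −F at 22.7 FPKM. The 7 mural markers summed to between 28.01 and 31.93 FPKM with serum and between 12.95 and 13.01 FPKM in NB2i. The part of mural markers in the Pdgfrb differences was not tested. Of both PDGF receptors summed, Pdgfrb made up 40.5% and 46.2% of the FPKM in −F, 56.9% and 59.3% in +F, 81.9% and 83.3% in F2i, and 53.0% and 62.5% in NB2i. Pdgfrb and Csf1r are neighbours on chromosome 18, 15536 bases apart, and moved in opposite directions between +F and −F.

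**Figure D2:**
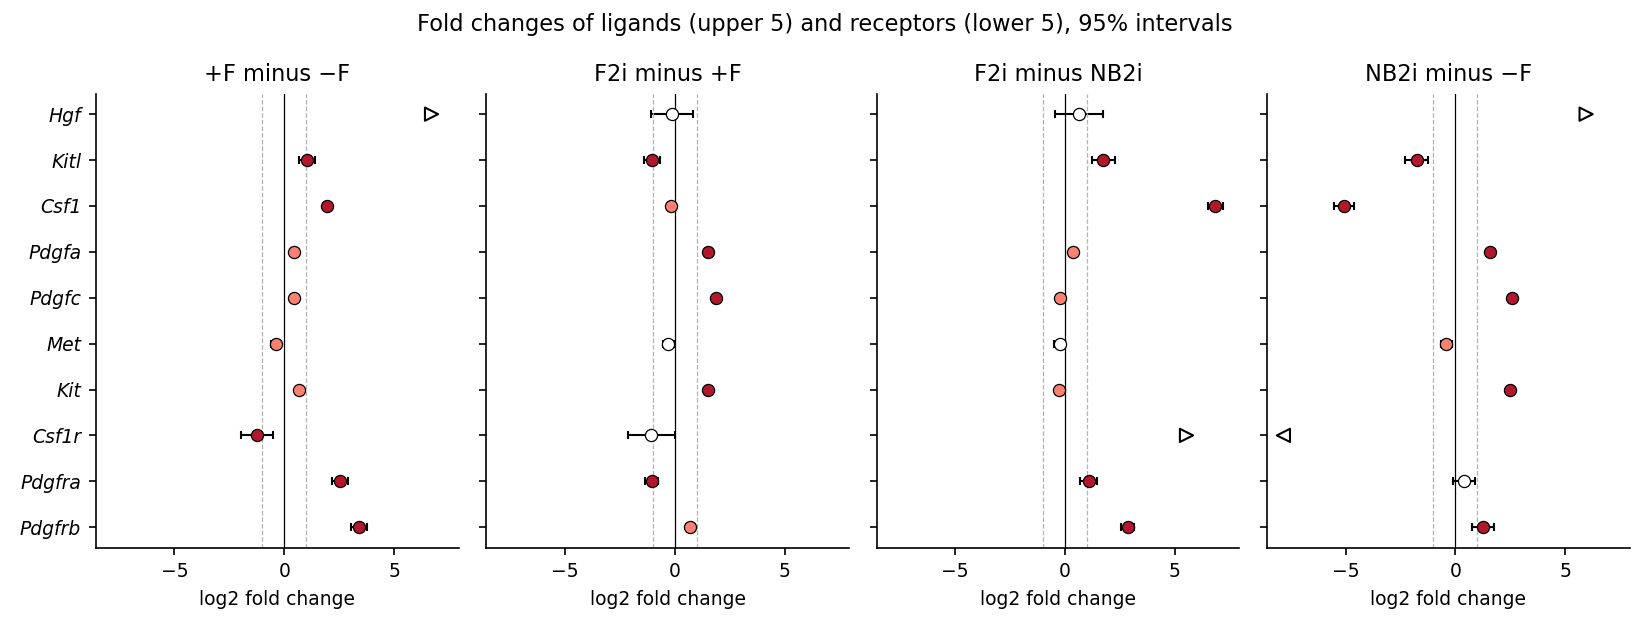
Log2 fold changes of the 10 genes in 4 comparisons, with 95% intervals from edgeR, which for Csf1, Pdgfa, Pdgfc and Kit are mostly narrower than the mark. Dark red marks genes called at 2-fold or more, light red marks genes that passed below 2-fold and white marks those that did not pass. Open triangles mark comparisons with a condition at 0 counts, where the plotted size depends on the prior count.

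Each of the comparisons called a different set of the genes. Between F2i and +F 5 genes were called, where 13.4% of all genes were called. Kit, Pdgfa and Pdgfc were higher (6.44% of all genes) and Kitl and Pdgfra lower (7% of all genes). With Pdgfrb and Csf1 added, 4 passed higher and 3 lower, where 54.8% of all genes passed, 27.3% higher and 27.4% lower. The falls of Kitl and Pdgfra were close to 2-fold, and the number called was 3 without +F replicate 1 or without F2i replicate 2. Between F2i and NB2i 5 genes were called, all higher in F2i, where 19.3% of all genes were called, 13.3% higher and 6.01% lower. They were Csf1, Csf1r, Kitl, Pdgfra and Pdgfrb. The call of Csf1r used a fitted fold against 0 counts, and its bound of 1.87-fold is under 2. With only F2i and NB2i in the fit Csf1r had too few counts to be tested, and 4 genes were called. Pdgfra was close to 2-fold and fell below it, while still passing, without F2i replicate 1 (log2 fold change 0.92), without NB2i replicate 2 and in both limma fits. With Pdgfa added, 6 passed higher, and Kit and Pdgfc passed lower, where 64.1% of all genes passed, 30.8% higher and 33.3% lower. Between NB2i and −F 8 genes were called, where 27.2% of all genes were called. Hgf, Kit, Pdgfa, Pdgfc and Pdgfrb were higher in NB2i (11.1% of all genes) and Csf1, Csf1r and Kitl lower (16.1% of all genes). With only NB2i and −F in the fit Hgf had too few counts to be tested, and 7 genes were called. With Met, 9 genes passed, 5 higher and 4 lower, where 72.4% of all genes passed, 36.9% higher and 35.4% lower. The comparison of +F with −F and that of F2i with NB2i share no library, and Csf1, Kitl, Pdgfra and Pdgfrb were called higher with feeders in both. The comparison of F2i with +F and that of NB2i with −F share no library either, and Kit, Pdgfa and Pdgfc were called higher in the 2i condition of both. How many of all genes tested were called higher in both comparisons of either pair was not counted. These joint calls therefore do not say whether the genes named are unusual in this. NB2i differed from −F in serum, medium and substrate as well as in 2i, and these cannot be told apart.

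Averaged over serum and 2i, 6 genes were called higher with feeders and 0 lower, where 9.15% and 2.24% of all genes tested were and 11.4% in all. With Kit and Pdgfa, 8 passed higher, and Met was the 1 gene that passed lower, where 60.6% of all genes passed, 30.3% in each direction. Met differed by less than 2-fold (log2 fold change −0.31, SE 0.08, edgeR adjusted p = 0.0037), and did not pass in DESeq2 (adjusted p = 0.051). Pdgfrb had a log2 difference of 3.11 (SE 0.11, adjusted p = 4.2e-16), Csf1 of 4.39 (SE 0.09, adjusted p = 4.4e-20), Pdgfra of 1.80 (SE 0.13, adjusted p = 1.6e-10) and Kitl of 1.38 (SE 0.15, adjusted p = 1.1e-07). For Hgf and Csf1r this average included a condition at 0 counts. For Csf1r it joined differences of opposite sign, and it did not pass in DESeq2 (adjusted p = 0.067) or without either NB2i replicate (adjusted p = 0.086 each). The 2 feeder differences differed past 2-fold for 4 genes, Csf1, Csf1r, Hgf and Pdgfra, where 16.5% of all genes tested did. In 2 of these the difference in serum was the higher (Hgf and Pdgfra, 5.87% of all genes) and in 2 the lower (Csf1 and Csf1r, 10.6%). With Kit and Pdgfc 6 passed, 4 higher and 2 lower, where 48.9% of all genes passed, 26.1% higher and 22.8% lower.

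The 4 genes called higher with feeders in both serum and 2i were set beside the fibroblast markers. The markers had log2 fold changes between 1.45 for Twist2 and 7.86 for Col6a3 in +F against −F, with a median of 5.90. Pdgfrb at 3.38, Pdgfra at 2.53 and Csf1 at 1.94 lay inside that range and below its median, and Kitl at 1.02 lay below the range. In F2i against NB2i the markers ran from 4.53 for Twist2 to 14.8 for Postn, which had 0 counts in NB2i, with a median of 8.23. Csf1, at 6.83, lay inside that range and below its median. Pdgfrb at 2.84, Kitl at 1.74 and Pdgfra at 1.07 lay below the range. Of all genes tested in F2i against +F, 27.3% passed higher, 6.44% were called higher and 27.4% passed lower. Of the 13 markers 10 passed higher, 7 of them called, and 0 passed lower. Pdgfrb moved in that direction, whereas Kitl, Pdgfra and Csf1 did not. Col1a1 was at 67.8 FPKM in +F and 244 FPKM in F2i, beside 2.53 FPKM in −F and 0.53 FPKM in NB2i. Fibroblast markers thus moved with both feeder conditions, and their part in the differences of the 10 genes was not tested.

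**Figure D3:**
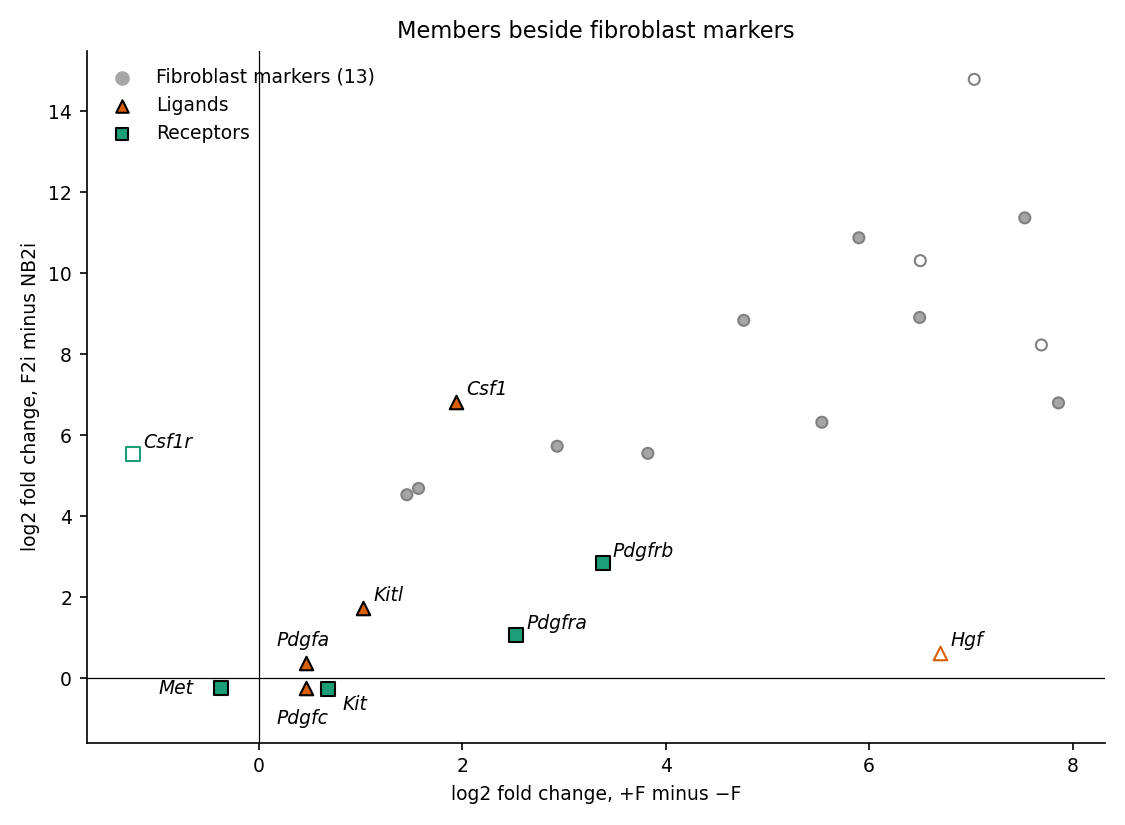
Log2 fold change of F2i against NB2i (vertical axis) by that of +F against −F (horizontal axis) for the 10 genes and 13 fibroblast markers; the 2 comparisons share no library. Open marks (Hgf, Csf1r and the markers Dcn, Lum and Postn) rest on a condition at 0 counts in at least 1 comparison. Pdgfa, Pdgfc, Kit and Met lie within 1 unit of 0 on both axes, while all 13 markers lie above 1 on both.

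Ligand and receptor were then compared within each library as the log2 ratio of FPKM, with 0.1 FPKM added to both. The ligand was above the receptor in all 8 libraries for 4 of 6 pairs, those of Csf1 and of the PDGFs, and the receptor was above the ligand in all 8 for Hgf with Met and Kitl with Kit. The Kitl to Kit ratio was −4.21 ± 0.19 (SD, n = 2 here and for each ratio) in −F, −3.98 ± 0.10 in +F, −6.39 ± 0.08 in F2i and −7.92 ± 0.14 in NB2i, so both conditions with 2i lay below both others. The Hgf to Met ratio was −3.97 ± 0.06 in −F and between −2.32 and −1.62 as a mean in the other conditions. The Csf1 to Csf1r ratio was 2.35 ± 0.34 in −F, 5.03 ± 0.03 in +F, 5.34 ± 0.13 in F2i and 0.80 ± 0.18 in NB2i, the last resting on the added value since Csf1r was at 0. The Pdgfa to Pdgfra ratio was lowest in +F, at 4.36 ± 0.10, and was 6.00 ± 0.06 in −F, 6.80 ± 0.15 in F2i and 7.28 ± 0.09 in NB2i. The Pdgfc to Pdgfrb ratio was 4.05 ± 0.09 in −F, 1.70 ± 0.08 in +F, 2.87 ± 0.09 in F2i and 5.69 ± 0.23 in NB2i. Both feeder conditions lay below both others on this scale, but with 1 FPKM added in place of 0.1 F2i (2.54) lay above −F (2.21). That of Pdgfc to Pdgfra was 3.79 ± 0.07, 2.14 ± 0.02, 4.94 ± 0.16 and 6.05 ± 0.08 in the same order. With 2 libraries against 2, an exact permutation test cannot give a p below 0.3333, so these ratios carry no test.

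**Figure D4:**
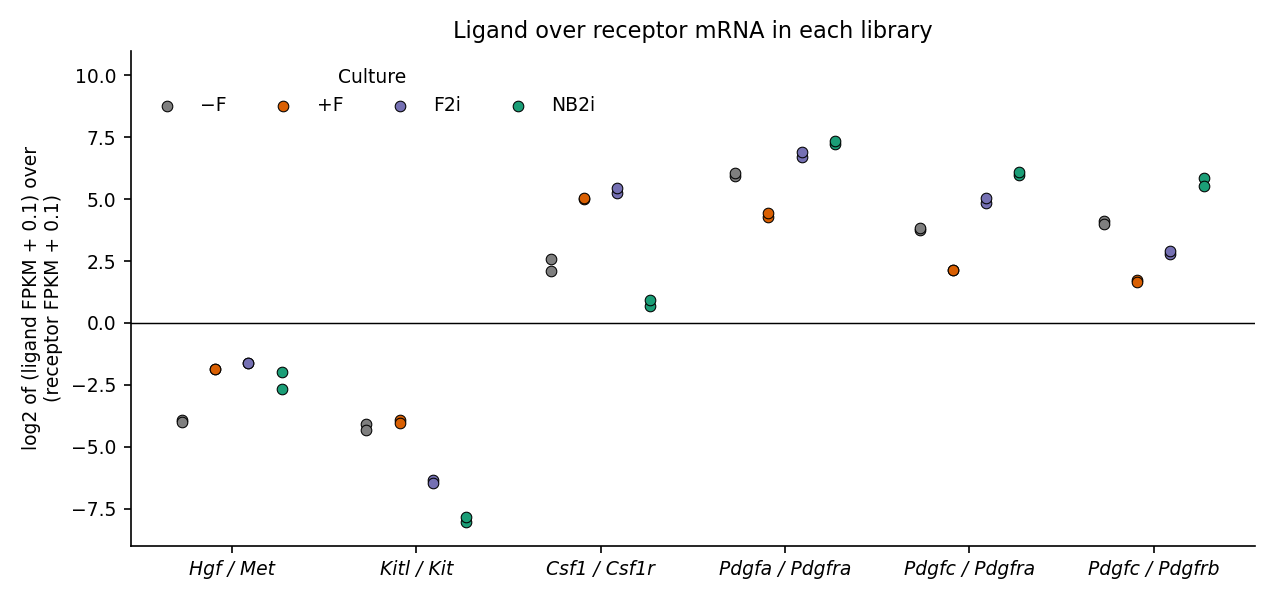
Log2 ratio of ligand over receptor FPKM, with 0.1 FPKM added to each, for 6 pairs; each point is 1 library and 0 marks equal levels. Hgf over Met and Kitl over Kit lie below 0 in all 8 libraries and the other 4 pairs above it. The 3 PDGF pairs are lowest in +F.

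Kit, Pdgfa and Pdgfc were the 3 genes called higher in F2i against +F and in NB2i against −F, and Csf1 was lowest in NB2i. For each, the bases before 1 annotated transcription start are shown, so that these windows can be compared between genes that moved together. The sequences are from RefSeq (GRCm38.p6), 5′ to 3′ on the strand of the gene, and each motif match is in capitals. For Kit and Pdgfa the last bases of the 250-base window lie in GENCODE exons and are not printed, which leaves 179 and 157 bases. RefSeq lists 2 windows for each of these genes. The one used was nearest to the start of a chosen transcript, 71 bases away for Kit and 93 for Pdgfa. The Pdgfa window lies inside the GENCODE span of the gene given above, so the bases before its outermost start were not compared. The windows are chr5:75574737-75574915 (plus strand) for Kit, chr5:138995038-138995194 (minus strand) for Pdgfa, chr3:81036166-81036415 (plus strand) for Pdgfc and chr3:107760470-107760719 (minus strand) for Csf1.
Kit: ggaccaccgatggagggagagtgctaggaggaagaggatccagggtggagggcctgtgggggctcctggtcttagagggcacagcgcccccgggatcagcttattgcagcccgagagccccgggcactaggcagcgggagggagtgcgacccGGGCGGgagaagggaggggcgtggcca
Pdgfa: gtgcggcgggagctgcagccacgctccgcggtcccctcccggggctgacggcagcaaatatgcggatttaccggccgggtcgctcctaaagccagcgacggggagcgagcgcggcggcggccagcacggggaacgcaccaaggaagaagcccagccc
Pdgfc: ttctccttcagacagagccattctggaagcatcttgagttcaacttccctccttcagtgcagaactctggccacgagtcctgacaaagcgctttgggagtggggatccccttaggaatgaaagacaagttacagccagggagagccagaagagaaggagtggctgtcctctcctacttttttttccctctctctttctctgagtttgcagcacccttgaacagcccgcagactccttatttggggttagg
Csf1: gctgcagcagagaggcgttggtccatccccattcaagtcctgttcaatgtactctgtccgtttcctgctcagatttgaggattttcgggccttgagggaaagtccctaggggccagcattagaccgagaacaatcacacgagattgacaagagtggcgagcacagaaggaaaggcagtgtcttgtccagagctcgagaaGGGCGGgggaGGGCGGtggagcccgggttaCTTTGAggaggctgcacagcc

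The 5 motifs searched on both strands in the full 250 bases were the GC box GGGCGG, the TATA box TATAAA, the TCF/LEF core CTTTGA, the STAT motif TTCNNNGAA and the AP-1 motif TGANTCA, none of which holds another. Kit held 1 GC box, Csf1 held 2, and Pdgfa held 2 in its unprinted bases, where 32.7% of all 32851 windows held at least 1. Pdgfc held no match to any of the 5. The TCF/LEF core was found once, in Csf1, 21 bases before the start, and 13.8% of all windows held it. The TATA box (12.4% of windows), the STAT motif (7.02%) and the AP-1 motif (6.75%) had no match in the 4 windows. Pdgfa and Kit were rich in G and C, 72.4% and 70.8% with 28 and 17 CpG dinucleotides, against medians of 52.4% and 6 over all windows. Pdgfc, at 50.8% with 3 CpG, was near the median, so that these 3 genes were not alike in base composition. Csf1 had 56.4% and 10 CpG.

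The genes most like each of the 10 were found as the 2 with the smallest root mean square distance between centred log2(CPM + 1) profiles over the 8 libraries. For Csf1 they were Cyr61, a matricellular protein, at a distance of 0.11, and S100a6 at 0.24, both with means above 100 FPKM in +F and below 4 FPKM in NB2i. For Pdgfrb they were Osr2 (0.11) and Cdh11, a mesenchymal cadherin (0.16), and for Pdgfra they were the guidance ligand Sema3a (0.15) and Crispld2 (0.18). For Kitl they were Hbegf (0.12), another growth factor, and Piwil4 (0.15). Those for Kit were Nynrin (0.09) and Tiam2 (0.10), for Pdgfa Fbxo15 (0.06) and AI662270 (0.08), and for Pdgfc Sh2d4b (0.10) and Pip5k1b (0.11). For Met they were Thap11 (0.04) and Zfp322a (0.05). Hgf and Csf1r lay so close to 0 CPM that the added 1 flattened their profiles, and their nearest genes are therefore not meaningful in size, 9430038I01Rik and Tor1aip1 for Hgf and Celf5 and Sestd1 for Csf1r. The typical distance of a gene from these profiles, the median over all genes tested, was between 0.33 for Met and 1.92 for Csf1.

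The remaining ligands, receptors and regulators of these pathways, apart from the FGF and IGF systems, were counted from 4 lists. Of 30 other ligands 25 were tested, and in +F against −F 11 passed higher and 4 lower, 5 and 1 of them called, with a median log2 fold change of 0.26. The 5 ligands called higher all had means under 1 FPKM in both −F and +F. Over all genes tested 21.7% passed higher and 18.5% lower, and 5.59% and 1.65% were called, which is the background for these lists. The ligand called lower was Artn, a neurotrophic factor of the GDNF family that signals through Ret, with a mean FPKM of 2.19 ± 0.24 without feeders and 0.965 ± 0.035 with them in serum (SD, 2 libraries each) (log2 fold change −1.18, SE 0.19, adjusted p = 4.4e-05). Of 29 other receptors 24 were tested, of which 8 passed higher, 5 of them called, and 5 lower, 0 of them called, with a median of 0.0043. Ddr2, a collagen receptor of fibroblasts, was at 0.035 ± 0.021 FPKM in −F, 1.90 ± 0.13 in +F, 4.19 ± 0.23 in F2i and 0.460 ± 0.071 in NB2i (+F against −F 5.88, SE 0.22, adjusted p = 3.2e-15), the same order of conditions as Pdgfrb. Axl, the receptor of Gas6, was at 1.47 ± 0.01 FPKM in −F and 8.54 ± 0.19 in +F (2.56, SE 0.08, adjusted p = 1.3e-16), and Flt1, a receptor of VEGF, was at 0.810 ± 0.014 and 1.72 ± 0.10 FPKM (1.11, SE 0.14, adjusted p = 1.6e-06). Flt1 is known from endothelium, whose 6 markers summed to between 9.77 and 9.82 FPKM in −F, 6.84 and 7.12 in +F, 5.28 and 5.93 in F2i, and 11.5 and 11.9 in NB2i. Of the 5 endothelial markers tested, 3 passed lower in +F than in −F, 2 of them called, and 0 passed higher, beside the background given above. Vwf alone was at 10.5 FPKM in NB2i. In NB2i against −F 4 of these 5 were called lower and 1 higher, where 16.1% and 11.1% of all genes were.

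Of 16 genes for activation and shedding of ligands 15 were tested, and 5 passed higher, 3 of them called, and 4 lower in +F against −F, with a median of −0.01. Plat and Plau, which were among those called, encode plasminogen activators, and the protease encoded by Plat can activate PDGF-C. Plat rose by 2.33 (SE 0.20, adjusted p = 6.6e-09), and Plau by 1.29 (SE 0.21, adjusted p = 4.1e-05). Of 24 adaptors and negative regulators all were tested, with 8 passing higher, 1 of them called, 4 lower and a median of 0.03. The called gene was Pik3r1, the regulatory subunit of PI3 kinase, at 2.49 ± 0.08 FPKM in −F and 5.25 ± 0.21 in +F (1.10, SE 0.08, adjusted p = 2.9e-10). In NB2i against −F, 9 of the 24 other receptors were called lower and 5 higher, with a median of −0.58, where 16.1% and 11.1% of all genes were. In F2i against NB2i 11 were called higher and 1 lower, with a median of 0.29, where 13.3% and 6.01% of all genes were.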

How the data were processed

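Single-end sequencing of poly-A RNA on a BGISEQ-500 covered the 8 samples. Mapping to mm10 was done with Bowtie2 and quantification with RSEM. Each file deposited by the authors holds expected counts (RSEM estimates, not normalized, 29.8% of values not whole), FPKM (those counts divided by transcript length and depth) and the gene length. Genes without reads are not listed and were set to 0. Whether the library kept the strand is not given in the sources used here. The version of Bowtie2 is not given there either.

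After rounding of the expected counts, conditions were compared in R 4.3.3 by the quasi-likelihood test of edgeR 4.0.16 (glmQLFit, glmQLFTest, TMM factors 0.9774 to 1.028). All 8 samples entered 1 fit by condition without a block, with 4 residual degrees of freedom, over the 15287 genes that reached 10 counts in 2 or more samples. The authors compared conditions with DESeq2, which was used here as an alternative. The biological coefficient of variation was 3.254%, and exact permutation of 2 samples against 2 cannot give a p below 0.3333, so small p-values rest on the model. A fold against a condition at 0 counts is a bound computed with a floor of 3 counts per library. Intervals cover the model's error, and the scripts were tested on simulated data.

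Replicates differed by more than sampling noise (chi-square per degree of freedom 1.885 to 3.712) and were kept separate. Replicate numbers are shared between conditions but did not pair the samples. Alternatives were DESeq2 1.42.0, its size factors, no filter, only the groups compared, a replicate block, each replicate left out, limma 3.58.1 with 1 or 0.1 added to FPKM before taking log2, for genes of at least 0.5 FPKM in 2 samples, presence at 0.5 or 2 FPKM, and ratios with 1 or 0.01 FPKM added. The limma scale understates changes of low genes. The 10 genes, the pathway and marker lists and the tests were chosen with earlier results of these data known. All 10 genes are named. From each pathway list, up to 3 genes called in each direction in +F against −F with the largest fold and at least 1 FPKM in the higher condition are named, as are the 2 genes nearest in profile to each of the 10, except for 1 gene that is not reported here. Coordinates are from GENCODE on mm10, counted from 1, and promoter windows are from RefSeq on GRCm38.p6.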

Additional observations from a re-analysis of the deposited data

Results flagged for a closer look

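For 6 of the 10 genes the feeder difference in serum (+F minus −F) differed from that in 2i (F2i minus NB2i) by the interaction term of the edgeR fit, where 48.9% of all genes tested passed. On the log2 scale this was −4.90 for Csf1, whose difference was larger in 2i, and 1.46 for Pdgfra, whose difference was larger in serum. For Kit it was 0.95 and for Pdgfc 0.71, both higher with feeders in serum and lower in 2i. For Hgf it was 6.07 and for Csf1r −6.77, sizes that depend on the prior count since 1 condition held no counts. F2i and NB2i differed in serum, medium and substrate as well as in feeders, and these cannot be told apart.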

How the results depend on the processing

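Of 854 log2 fold changes recomputed under an alternative, 827 kept their direction and their side of the adjusted p threshold of 0.05. Another 21 lost that threshold, 3 gained it and 3 changed sign, none of the last past the threshold in either fit. The 2-fold limit was not part of this. Kitl in +F against −F, at 0.415 with limma on log2(FPKM + 1), therefore counted as kept although no longer called. The changes of sign were Hgf in F2i against +F without F2i replicate 1 (0.044, in a range of −0.32 to 0.044 over the replicates left out) and, with limma on log2(FPKM + 1), the interaction of Kitl (0.047) and of Pdgfrb (−0.22). Of the 21 losses, 9 were Csf1, 7 Met and 5 Csf1r.

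The number of the 10 genes called stayed within 1.5 times under the edgeR and DESeq2 alternatives, except in F2i against +F, where leaving out a replicate gave from 3 to 5. With limma on log2(FPKM + 1) it was 2 in +F against −F, 3 in F2i against +F, 2 in F2i against NB2i, 4 in NB2i against −F, 2 for the average over feeders and 1 for the interaction. With 0.1 FPKM added in place of 1 it was 3, 3, 3, 5 and, for the interaction, 2. Over all genes limma on log2(FPKM + 1) called 309, 731, 1094, 1982, 454 and 1022 in the same order of 6 comparisons, against 1107, 2055, 2956, 4152, 1741 and 2522 in the edgeR fit, and with 0.1 FPKM added 1113 for the average. These fits keep fewer genes and could not include Hgf or Csf1r, and the added FPKM shrinks the folds of low genes. Of 48 mean log2 ratios recomputed with 1 or 0.01 FPKM added, 44 moved by more than 1 SD and 0 changed sign, and the ligand stayed above the receptor in all 8 libraries for 4 pairs. With 1 FPKM added the order of −F (−2.98) and +F (−3.18) in Kitl over Kit turned round. Genes present with feeders and not without numbered 2 at 1 FPKM and 1 at 2 FPKM. With only the groups compared in the fit, Csf1r in F2i against NB2i and Hgf in NB2i against −F had too few counts to be tested, and the average and the interaction use all groups, so that alternative was not run for them. A left-out replicate leaves 1 sample, which is assumed to vary like those of the other conditions.

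Replicate numbers did not pair the samples (correlation of deviations from −0.0452 to 0.0538 over 6 pairs of conditions). With the replicate block the numbers of genes called were 6, 5, 5, 8, 6 and 4, as without it. Depth limits Hgf and Csf1r in every condition, Pdgfra and Pdgfrb in −F, and Csf1 and Kitl in NB2i, all of which rest on at most 34 counts per library.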
